A study of Mus musculus with 17 samples.

Results

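C1qa, C1qb and C1qc encode the A, B and C chains of C1q, the recognition protein that starts the classical complement pathway. They were taken as the rows of the deposited tables whose gene name was one of these symbols, which gave 3 genes of the 35147 gene names found in all 4 tables together. Each of the 3 was present in every table and in all 17 libraries. The chains were selected on their measured levels in the CXCR4 sort and the Cxcl12 knockout, which were already known, so in those comparisons their values are a description without a test.

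C1q is assembled from equal numbers of the A, B and C chains, which pair through collagen-like tails and carry globular gC1q heads. It is one of the few complement proteins made mainly by macrophages and related myeloid cells rather than by the liver. Bound to antibody or to dying cells, it activates the proteases C1r and C1s, which cleave C4 and C2, and it also marks dying cells for uptake by macrophages.

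The libraries were made from mammary glands of virgin mice. Macrophages were sorted on F4/80 and CD11b for the knockout experiments, which gave 2 libraries in each of 4 groups: LysM-Cre Cxcr4 knockout (LysmCre+, Cxcr4 fl/fl), LysM-Cre control (LysmCre+), K8-Cre Cxcl12 knockout (K8Cre+, Cxcl12 fl/fl) and K8-Cre control (K8Cre+). LysM-Cre is a knock-in at the Lyz2 locus that is active in myeloid cells. K8-Cre is active in luminal epithelial cells, so the macrophages of the Cxcl12 knockout came from glands whose luminal cells carried the deletion. From wild type mice there were 2 libraries of CXCR4-positive and 1 of CXCR4-negative macrophages, sorted by the surface protein. Wild type macrophages were also cultured in RPMI with serum, with 1 library each for recombinant CXCL12 with the AKT inhibitor GSK690693, the inhibitor alone, CXCL12 alone and no treatment. The last 2 libraries were P4 cells, a basal population enriched for mammary stem cells, 1 from a K8-Cre Cxcl12 knockout and 1 from a K8-Cre control. The age of the mice and the number of mice behind a library are not given in the labels, so the spread between libraries may be technical.

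Macrophage levels are in CPM, reads scaled to a common library size, and P4 levels are in FPKM, which also divides by gene length. Estimated depth was 8.60 to 37.2 M reads (1 M is 1e6 reads) in the knockout experiments, 23.2 to 28.8 M reads in the CXCR4 sort and 14.3 to 29.04 M reads in culture. Cxcr4 mRNA was 232 and 140 CPM in the Cxcr4 knockout, against 819 and 318 CPM in its control. It did not separate the CXCR4 sort, with 632 and 875 CPM in the CXCR4-positive libraries and 772 CPM in the CXCR4-negative one. Lyz2, the gene that holds the LysM-Cre insertion, had 67.4 and 51.7 CPM in the Cxcr4 knockout, against 10226 and 2780 CPM in the LysM-Cre control. The number of LysM-Cre alleles is not given in the labels for either group, so a difference in allele number and the loss of Cxcr4 cannot be told apart.

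The C1q genes lie side by side on mouse chromosome 4 (build GRCm38, GENCODE M21), all on the minus strand and all protein-coding with 3 exons. C1qb (ENSMUSG00000036905) spans 136880129 to 136886187, C1qc (ENSMUSG00000036896) 136889804 to 136893065 and C1qa (ENSMUSG00000036887) 136895917 to 136898803. The gaps between them are 3616 and 2851 bp, the whole cluster takes 18675 bp, and no other annotated gene overlaps it. RefSeq promoter windows (GRCm38.p6) were matched for C1qb and C1qc. The stretches upstream of the annotated starts are shown because the levels of the chains ran together over the fresh libraries and because transcription factors named below are known to act on C1q genes in mouse macrophages. Capitals mark matches to 2 short motifs, searched on both strands: GAGGAA, the core of a PU.1 box, and TGCTGA, a MAF half-site. In C1qc the capitals read TTCCTC, which is the PU.1 core on the opposite strand. The C1qb stretch is chr4:136886201-136886450 and the C1qc stretch is chr4:136893066-136893164, both on the minus strand and written 5′ to 3′ along the gene.
C1qb: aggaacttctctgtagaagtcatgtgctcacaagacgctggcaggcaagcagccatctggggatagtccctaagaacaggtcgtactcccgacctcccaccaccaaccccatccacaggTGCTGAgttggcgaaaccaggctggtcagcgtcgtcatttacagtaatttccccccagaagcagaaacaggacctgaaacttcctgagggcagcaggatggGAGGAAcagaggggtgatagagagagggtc
C1qc: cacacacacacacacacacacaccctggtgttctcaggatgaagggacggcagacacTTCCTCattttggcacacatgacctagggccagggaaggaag
Counted from the RefSeq start of C1qb (136886200), its PU.1 core lay at -30 and its MAF half-site at -131. The PU.1 core of C1qc lay at -193 from its RefSeq start (136892914). The GENCODE start of C1qc (136893065) lies upstream of that, and the C1qc stretch stops there. The distance of -193 is thus not counted from the end of the stretch shown. Both motifs are common: of 32851 RefSeq promoter windows of 300 bp, 28.28% held the PU.1 core and 19.48% the MAF half-site. A match is a run of letters and no evidence of binding.

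C1q mRNA was abundant in most fresh macrophage libraries and stayed below 1 FPKM in P4 cells. C1qb averaged 673 ± 18.3 CPM in CXCR4-positive macrophages, 324 ± 121 CPM in the LysM-Cre control, 314 ± 90.4 CPM in the Cxcr4 knockout, 295 ± 96.5 CPM in the K8-Cre control and 161 ± 129 CPM in the Cxcl12 knockout (SD, n = 2 each), and was 13.5 CPM in the CXCR4-negative library. Between the LysM-Cre control, Cxcr4 knockout, K8-Cre control and Cxcl12 knockout the C1qb ranges overlapped for every pair, so this order does not separate them.
C1qc had means of 485 ± 69.5 CPM in CXCR4-positive macrophages, 299.6 ± 206 CPM in the Cxcr4 knockout, 233 ± 161 CPM in the LysM-Cre control, 166 ± 19.1 CPM in the K8-Cre control and 74.3 ± 73.0 CPM in the Cxcl12 knockout (SD, n = 2 each), and 4.57 CPM in the CXCR4-negative library. For C1qc the Cxcl12 knockout overlapped the LysM-Cre control but lay below the Cxcr4 knockout and the K8-Cre control, while those 3 groups overlapped one another. C1qa averaged 405 ± 0.131 CPM in CXCR4-positive macrophages, 199 ± 89.7 CPM in the Cxcr4 knockout, 173 ± 22.1 CPM in the K8-Cre control, 117 ± 29.0 CPM in the LysM-Cre control and 76.8 ± 36.2 CPM in the Cxcl12 knockout (SD, n = 2 each), and was 9.74 CPM in the CXCR4-negative library. For C1qa the K8-Cre control lay above the LysM-Cre control and the Cxcl12 knockout, the Cxcr4 knockout lay above the Cxcl12 knockout, and the other pairs of these 4 groups overlapped. Of all 17275 genes tested, 8.03% had both Cxcl12 knockout libraries below both K8-Cre controls. For the pairs across the Cxcr4 and Cxcl12 experiments this share was not computed, so for C1qa and C1qc their gaps are not read as differences between groups. Among fresh macrophages a CXCR4-positive library thus held the highest value of each chain and the CXCR4-negative library the lowest; for C1qc, Cxcr4 knockout library 1 at 445 CPM was above the lower CXCR4-positive library at 436 CPM. The knockout-experiment and CXCR4 tables were deposited separately, so levels set across them are not from a shared normalization.

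**Figure D1:**
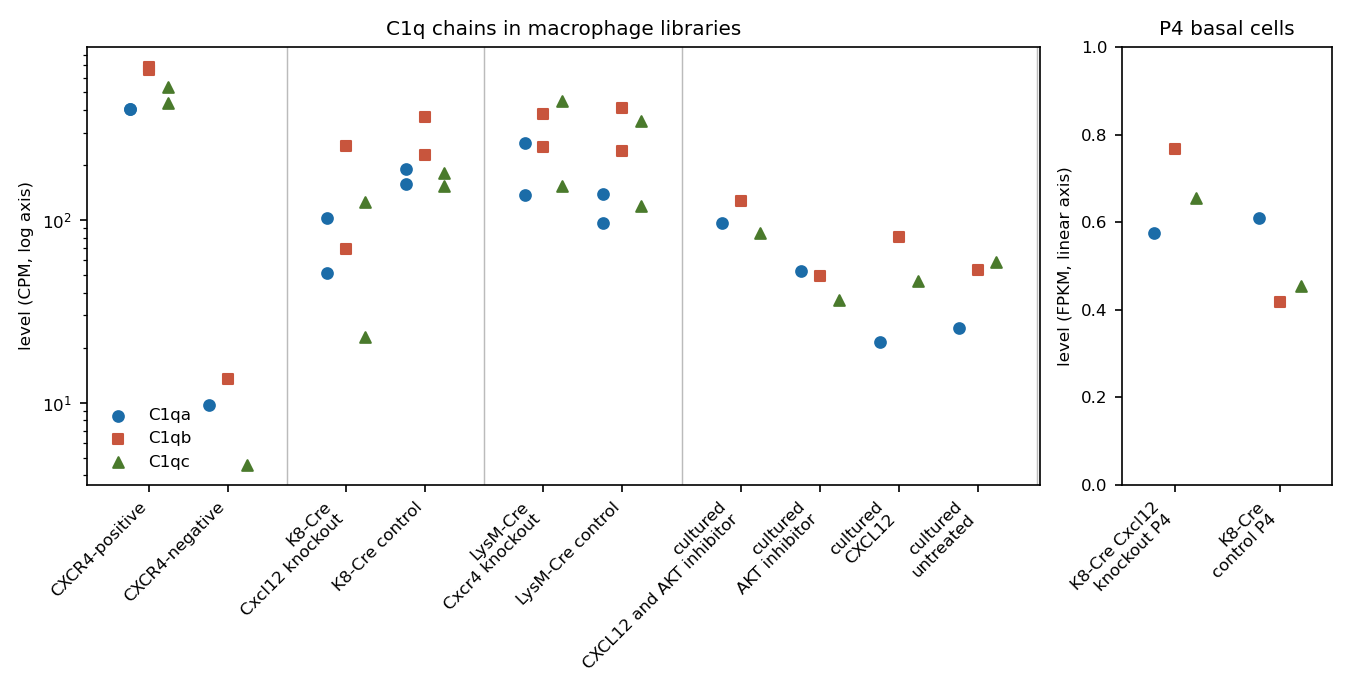
Levels of C1qa, C1qb and C1qc in every library, as CPM on a log axis for macrophages and as FPKM on a linear axis for P4 basal cells, with 1 point per library and no averaging. The CXCR4-positive points lie between 405 and 686 CPM and the CXCR4-negative ones between 4.57 and 13.5 CPM, while no P4 point exceeds 0.766 FPKM.

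Per length of annotated exons, C1q ranked among the most abundant protein-coding mRNAs of CXCR4-positive macrophages. C1qb was the 31st and 36th of 12766 protein-coding genes in these libraries, C1qa the 58th and 70th and C1qc the 114th and 99th. In the CXCR4-negative library the same genes were 2732nd, 3497th and 7853rd. In the 8 knockout-experiment libraries the ranks of the 3 chains ran from 49 to 3260 of 13817, and the rank of 3260 was C1qc in Cxcl12 knockout library 1.

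The CXCR4 sort asked how macrophages with surface CXCR4 differ from those without it. C1qa had 404.998 and 404.812 CPM in the CXCR4-positive libraries, against 9.74 CPM in the CXCR4-negative one. C1qb had 686 and 660 CPM in the CXCR4-positive libraries, against 13.5 CPM in the CXCR4-negative one. C1qc had 436 and 534.5 CPM in the CXCR4-positive libraries, against 4.57 CPM in the CXCR4-negative one. All 3 chains were thus far higher with surface CXCR4, and the low values still rested on about 226, 313 and 106 reads, well above the floor of 3 reads. The log2 differences on the log2(CPM + 1) scale were 5.24 for C1qa (SE 0.37), 5.54 for C1qb (SE 0.35) and 6.44 for C1qc (SE 0.37). These are ratios of 37.8, 46.5 and 86.9 in CPM + 1, which lie below the ratios of the CPM values themselves, most of all for C1qc. Leaving out either CXCR4-positive library left them at 5.24, at 5.51 to 5.57 and at 6.29 to 6.59. The CXCR4-negative group is 1 library, so the standard error takes its spread from other genes of like level. Among all 14411 genes tested with limma, 5.06% were called higher and 3.4% lower at an adjusted p under 0.05, 8.46% in all. With median-ratio scaling the split was 856 higher and 355 lower, against 729 higher and 490 lower as deposited. Every call in the sort, in this and later paragraphs, ended when the mean-variance trend or the filter on low values was left out: each gave 0 called genes in limma, with 2049 and 2684 genes under 0.05 before adjustment.

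Most listed macrophage markers also had a positive difference with surface CXCR4, each smaller than that of any C1q chain. The 15 macrophage markers summed to 10154 and 11574 CPM in the CXCR4-positive libraries, against 4189 CPM in the CXCR4-negative one, with 8 of the 15 called higher, none lower and 12 above 0, with log2 differences of -0.39 to 4.17 and a median of 1.13. Macrophage genes outside the list, among them Cd209f (7.29), Ms4a7 (6.29) and Siglec1 (5.24), differed by as much as the chains. Csf1r, through which CSF1 sustains macrophages, had 1483 and 1491 CPM in the CXCR4-positive libraries, against 467 CPM in the CXCR4-negative one. Itgam, which encodes the sort marker CD11b, had 285 and 329.6 CPM in the CXCR4-positive libraries, against 305 CPM in the CXCR4-negative one. Itgam mRNA thus differed little between the sorted fractions, in contrast to C1q. Set against the mean log2 level of the 15 markers, the mean log2 level of the chains differed by 0.58 and 0.45 in the CXCR4-positive libraries and by -3.68 in the CXCR4-negative one. Markers of other myeloid cells were lower in sum: dendritic cell markers summed to 480 and 539 CPM in the CXCR4-positive libraries, against 1560 CPM in the CXCR4-negative one, with 1 of 8 called higher and 5 lower and none at 0. Monocyte markers summed to 975 and 908 CPM in the CXCR4-positive libraries, against 2008 CPM in the CXCR4-negative one, with 5 of 8 called lower. Fibroblast markers moved with C1q, at 132 and 278 CPM in the CXCR4-positive libraries, against 64.4 CPM in the CXCR4-negative one, with 5 of 5 above 0, 2 called higher, none at 0 and a median log2 difference of 1.41. Luminal markers summed to 290 and 634 CPM in the CXCR4-positive libraries, against 272 CPM in the CXCR4-negative one, with 5 of 6 above 0 and none called. The part of these cells in the C1q values was not tested, and in bulk libraries fewer cells of a type and less RNA per cell cannot be told apart.

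The Cxcl12 knockout comparison asked what loss of Cxcl12 from luminal cells does to macrophages of the gland. C1qa had 51.2 and 102 CPM in the Cxcl12 knockout, against 157 and 189 CPM in the K8-Cre control. C1qb had 69.2 and 252 CPM in the Cxcl12 knockout, against 226 and 363 CPM in the K8-Cre control. C1qc had 22.7 and 126 CPM in the Cxcl12 knockout, against 153 and 179.9 CPM in the K8-Cre control. Both knockout libraries lay below both controls for C1qa and C1qc and overlapped the controls for C1qb; 8.03% of the 17275 genes tested lay below in this way and 20.4% above. The log2 changes were -1.24 for C1qa (SE 0.61), -1.11 for C1qb (SE 0.54) and -1.60 for C1qc (SE 0.63). When the mean-variance trend was left out, the standard errors were 0.82, 0.91 and 1.09. The median over all genes tested was 0.36, but it was 0.028 without K8-Cre control 1 and 0.92 without K8-Cre control 2. K8-Cre control 1 listed 37.0% of genes at 0, against 8.31% in K8-Cre control 2. The part of this in the median and in the 20.4% above was not tested. No gene was called in this comparison (0.0% of 17275 with limma); 491 genes lay under 0.05 before adjustment.

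Most of this difference came from knockout library 1, in which every chain was lower than in the other 7 libraries of the knockout experiments. Without it the log2 changes were -0.74 for C1qa, -0.19 for C1qb and -0.39 for C1qc, and without knockout library 2 they were -1.73, -2.04 and -2.81. Library 1 also differed from the others in the relation of C1q to macrophage markers: the mean log2 level of its chains differed by -1.66 from that of the 15 markers, while in the other 7 libraries the difference was between -0.23 and 0.53. The macrophage markers summed to 3988 and 4666 CPM in the Cxcl12 knockout, against 5525 and 5408 CPM in the K8-Cre control, so they were lower by far less than C1q in library 1. Dendritic cell markers summed to 1528 and 869.7 CPM in the Cxcl12 knockout, against 1862 and 845 CPM in the K8-Cre control, and monocyte markers to 2155 and 1995 CPM in the knockout, against 2189 and 2365 CPM in the control. The part of other cell types in the C1q change was not tested.

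**Figure D2:**
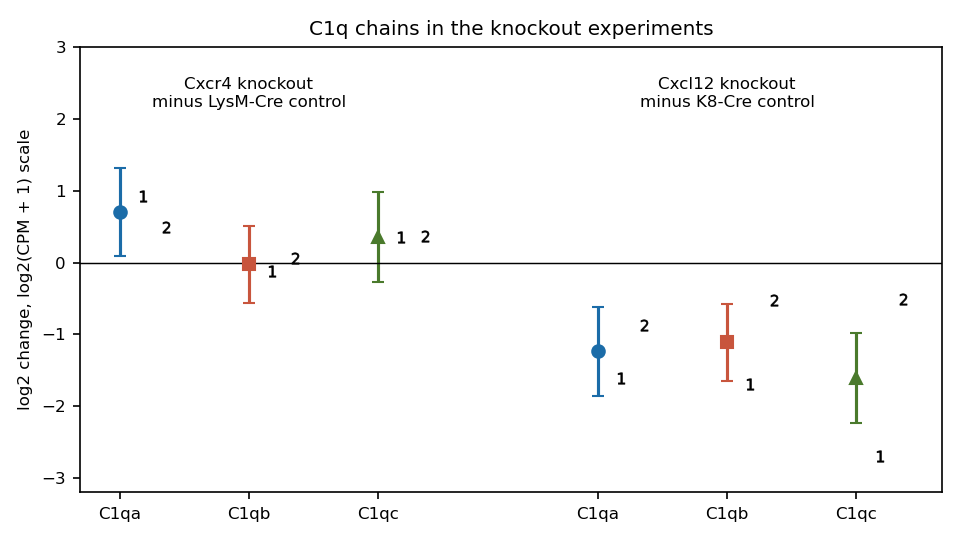
Log2 changes of the chains in both knockouts on the log2(CPM + 1) scale; coloured symbols are the fitted change with a bar of 1 SE on each side, and the digits 1 and 2 are the differences between libraries with the same repeat number. In the Cxcl12 knockout the digit 1 lies at -1.60, -1.70 and -2.70 and the digit 2 at -0.87, -0.52 and -0.51.

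No change in C1q passed the test in the Cxcr4 knockout, in which Cxcr4 was deleted in myeloid cells. C1qa had 263 and 136 CPM in the Cxcr4 knockout, against 138 and 96.6 CPM in the LysM-Cre control. C1qb had 378 and 250.04 CPM in the Cxcr4 knockout, against 409.8 and 238 CPM in the LysM-Cre control. C1qc had 445 and 154 CPM in the Cxcr4 knockout, against 347 and 119 CPM in the LysM-Cre control. The groups overlapped for each chain (non-overlap below or above the controls was seen for 8.78% and 16.7% of genes), and the libraries numbered 1 were above those numbered 2 in both groups. The log2 changes were 0.71 for C1qa (SE 0.61, 95% interval -0.51 to 1.92), -0.02 for C1qb (SE 0.54, -1.09 to 1.04) and 0.36 for C1qc (SE 0.63, -0.88 to 1.60), with adjusted p = 1 for each in limma over 17275 genes. The intervals still reach past a doubling for each chain. In this comparison 0.00579% of genes were called, a single gene. The 15 macrophage markers summed to 7998 and 5394 CPM in the Cxcr4 knockout, against 7115 and 4937 CPM in its control, which is the order of libraries seen for C1qa and C1qc; their part in the C1q values was not tested.

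Set against each other, the Cxcr4 knockout change was above the Cxcl12 knockout change by 1.95 for C1qa (SE 0.87), by 1.09 for C1qb (SE 0.76) and by 1.96 for C1qc (SE 0.88) on the log2 scale. Without Cxcl12 knockout library 1 they were 1.45, 0.16 and 0.75, and without Cxcl12 knockout library 2 they were 2.44, 2.01 and 3.17. The C1qc difference was also 1.20 without Cxcr4 knockout library 1 and 1.20 without LysM-Cre control 2, and the C1qb difference was 0.70 without LysM-Cre control 2. These differences include the Cxcl12 knockout values known beforehand and are given without a test.

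In culture, each chain was highest with CXCL12 and the AKT inhibitor together. C1qa had 95.9 CPM with both agents, 52.5 CPM with the inhibitor, 21.5 CPM with CXCL12 and 25.6 CPM untreated. C1qb had 126 CPM with both agents, 49.3 CPM with the inhibitor, 80.4 CPM with CXCL12 and 53.3 CPM untreated. C1qc had 85.1 CPM with both agents, 36.6 CPM with the inhibitor, 46.5 CPM with CXCL12 and 58.5 CPM untreated. The single agents thus did not move the chains together, while the combination stood above the other 3 libraries for every chain. On the log2 scale with a prior of 1 CPM, the combination over untreated cells gave 1.86 for C1qa, 1.23 for C1qb and 0.53 for C1qc, and 2 of 3 chains were at least 2-fold higher, where 22.1% of all genes with 10 CPM or more were and 24.9% were at least 2-fold lower. Exact 95% intervals for counting error were 91.1 to 101 CPM for C1qa, 121 to 132 CPM for C1qb and 80.7 to 89.8 CPM for C1qc with both agents, and did not overlap those of any other culture library. They do not cover differences between cultures, of which there was 1 per condition, so the treatments have no replicate check.

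CXCL12 alone over untreated cells gave -0.25 for C1qa, 0.58 for C1qb and -0.32 for C1qc on the log2 scale, with no chain at least 2-fold different; 11.2% of genes were 2-fold higher and 13.5% lower. The inhibitor alone over untreated cells gave 1.01 for C1qa, -0.11 for C1qb and -0.66 for C1qc, where 19.2% of genes were at least 2-fold higher and 15.8% lower. CXCL12 added to the inhibitor gave 0.86, 1.34 and 1.20 for C1qa, C1qb and C1qc over the inhibitor alone, where 20.8% of genes were at least 2-fold higher and 27.1% lower. The inhibitor added to CXCL12 gave 2.11, 0.64 and 0.86 over CXCL12 alone, where 22.8% of genes were at least 2-fold higher and 23.7% lower. The macrophage markers in the table were also highest in sum with both agents, over a narrower range than C1q: 2613 CPM with both agents, 2179.6 CPM with the inhibitor, 2388 CPM with CXCL12 and 2175 CPM untreated. By mean log2 level these markers were not highest there, at 5.95 with both agents, 6.19 with the inhibitor, 6.32 with CXCL12 and 5.89 untreated. Their median log2 ratio with both agents over untreated cells was 0.37. The median was -0.39 over genes with 1 CPM or more in the higher library and 0.02 over genes with 10 CPM or more. The part of the macrophage markers in the C1q values was not tested. The mean log2 level of the chains differed from that of the markers by 0.72 with both agents, -0.64 with the inhibitor, -0.86 with CXCL12 and -0.43 untreated. The library with both agents also listed 30.9% of genes at 0, against 12.4% to 19.7% in the other 3, and the part of this in the ratios was not tested. Endothelial markers summed to 1704 CPM with both agents, 1929 CPM with the inhibitor, 1459.6 CPM with CXCL12 and 1647 CPM untreated, and none of the 5 was at 0, and their part in the C1q values was not tested. Cultured C1q levels ran from 21.5 to 126 CPM, against 96.6 to 409.8 CPM in the fresh controls of the knockout experiments, and the mean log2 level of the macrophage markers was also lower, at 5.89 to 6.32 in culture and 7.13 to 8.003 in the fresh knockout-experiment libraries. Endothelial markers went the other way, with sums of 1459.6 to 1929 CPM in culture and 43.2 to 182 CPM in the fresh knockout-experiment libraries. So did adipocyte markers, with sums of 321 to 426 CPM in culture and 20.2 to 125 CPM in those fresh libraries. These adipocyte sums cover 4 listed markers in culture and 3 in the fresh libraries. The part of these marker sets in the lower C1q level of cultured cells was not tested. Culture and fresh tables were deposited separately, so these differences in level have no test.

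C1q mRNA was low in P4 basal cells. C1qa had 0.576 FPKM in the Cxcl12 knockout and 0.609 FPKM in the K8-Cre control. C1qb had 0.766 FPKM in the Cxcl12 knockout and 0.418 FPKM in the K8-Cre control. C1qc had 0.654 FPKM in the Cxcl12 knockout and 0.454 FPKM in the K8-Cre control. The chains ranked between 10430 and 11046 of 18935 protein-coding genes. Their log2 ratios with a prior of 1 FPKM were -0.03, 0.32 and 0.19, and the linear ratios without a prior were 0.945, 1.83 and 1.44. With the prior of 1 FPKM, values below 1 FPKM cannot reach a 2-fold ratio, so no chain could count as 2-fold different. Genes with 10 FPKM or more in the higher library, which include no chain, had a median log2 ratio of -0.04. Of those genes, 7.99% were at least 2-fold higher and 5.33% lower. Macrophage markers were also low in these cells, at a sum of 30.9 FPKM in the Cxcl12 knockout and 19.0 FPKM in the control, while the 6 basal markers summed to 6252 FPKM in the knockout and 4536 FPKM in the control. Each P4 group is 1 library of unknown depth, so no interval can be given.

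The balance of the chain mRNAs was not equal, although the protein holds equal numbers of each chain. Per kilobase of exons, C1qb was the most abundant chain in 14 of 15 macrophage libraries, the exception being cells cultured with the inhibitor alone, where C1qa was above it (log2 ratio 0.16). C1qa stood at a median log2 ratio of -0.70 to C1qb over the 11 fresh libraries, with a range of -1.51 to -0.37. C1qc stood at a median of -1.53 to C1qb, with a range of -2.43 to -0.59. The size of the C1qc deficit and its place as the lowest chain depend on the gene model. GENCODE gives C1qc 1931 bp of exons in all but 1203 bp in its longest transcript. With the shorter length the median of C1qc to C1qb was -0.84 and C1qb was highest in 13 of 15 libraries. C1qc was then lowest in 8 of 15 libraries, against 12 with all exons. The fresh median log2 ratio of C1qa to C1qc was then 0.03, against 0.71. The deposited lengths used by the submitters are not known for these tables.

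Among the fresh libraries, the C1qc share was smallest in the pair with the least C1q. The log2 ratio of C1qc to C1qb was -2.43 in Cxcl12 knockout library 1 and -2.39 in the CXCR4-negative library, against -1.84 to -0.59 in the other 9 fresh libraries. Cultured cells did not follow this: untreated cells and cells with the inhibitor alone had 137 and 138 CPM of the 3 chains together, against 143 CPM in Cxcl12 knockout library 1, with ratios of -0.69 and -1.26. The choice of length does not touch the order among fresh libraries, since it shifts each of them alike. Culture gene starts equalled that annotation for only 2.147% of genes, so the bases counted may differ between cultured and fresh cells. C1qa did not share the pattern. Its ratio to C1qb was -0.37 in Cxcl12 knockout library 1 and -0.40 in the CXCR4-negative library, at the upper end of the fresh range. In P4 cells, where FPKM already divides by length, the 3 ratios lay between -0.41 and 0.54.

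**Figure D3:**
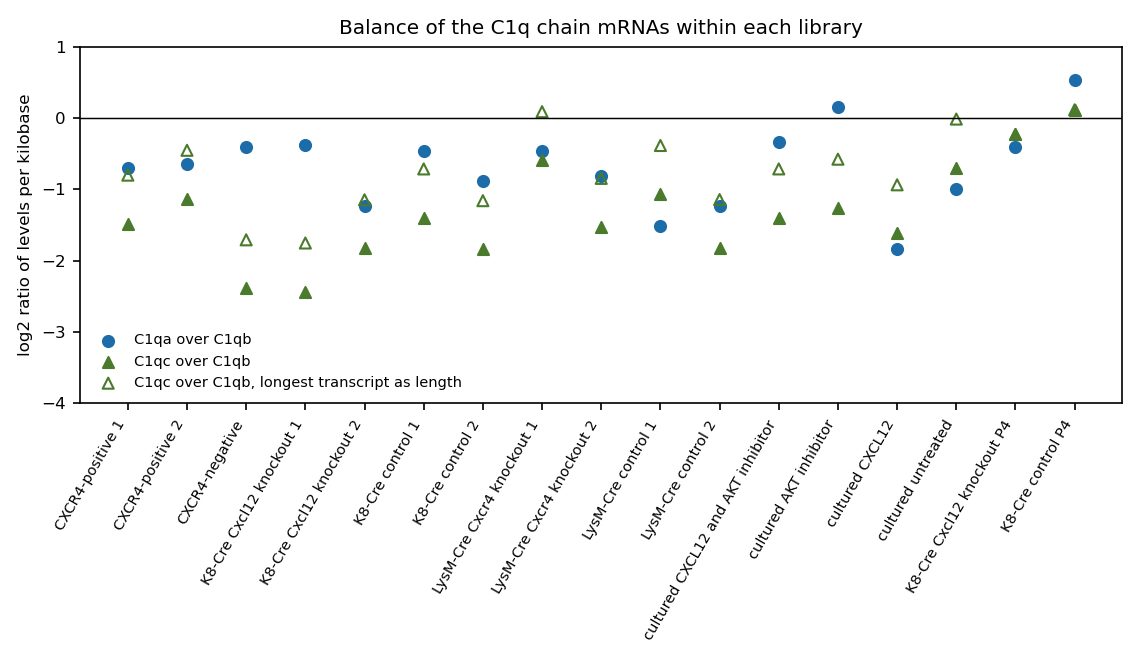
Log2 ratio of C1qa and of C1qc to C1qb per kilobase in each library; filled symbols use all annotated exons as length, and open triangles use the longest transcript of C1qc. The filled triangles lie lowest in the CXCR4-negative library (-2.39) and in Cxcl12 knockout library 1 (-2.43).

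The genes whose pattern was most like that of C1q were sought by Pearson correlation with the mean log2(CPM + 1) of the chains over the 11 fresh libraries, among 8856 genes with a mean of 10 CPM or more. The chains themselves correlated with one another at 0.96 to 0.98 over these libraries and at 0.85 to 0.96 over the 8 knockout-experiment libraries. Of the next 10 genes, 9 are given here: C4b (0.98), Slco2b1, an organic anion transporter (0.97), C5ar1, the receptor of the complement fragment C5a (0.97), Ms4a7 (0.96), Blvrb, a biliverdin reductase (0.95), the lectin gene Cd209f (0.95), Fndc3b (0.95), Siglec1, which encodes the macrophage sialic acid receptor CD169 (0.95), and P2ry12, a nucleotide receptor (0.94). C4b and C5ar1 thus belong to complement beyond C1q. The CXCR4-negative library lies far below the others and weighs heavily in these values; over the 8 knockout-experiment libraries the same genes had correlations of 0.74 to 0.91, and by Spearman rank 1 of the 9, Slco2b1, was among the first 10. All 9 stood higher in the CXCR4-positive libraries, by 1.72 to 7.29 on the log2 scale, and all 9 had a log2 change below 0 in the Cxcl12 knockout, from -1.70 to -0.16, which the choice by likeness to C1q favours. In the culture library with both agents 5 of the 9 were at their highest, among them C4b with 288 CPM, against 164 CPM with the inhibitor, 99.6 CPM with CXCL12 and 137 CPM untreated. Fndc3b, at 197 CPM against 340 to 352 CPM, and Blvrb, at 3.87 CPM against 4.96 to 23.3 CPM, were at their lowest there. Ms4a7 and C5ar1 were not at their highest. The share of all genes at their highest in that library was not computed, so the count of 5 has nothing to be set against.

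The classical pathway downstream of C1q was only in part higher with surface CXCR4. The gene lists here and below were chosen with earlier results of these data known. As the CXCR4-negative group is 1 library, calls in the sort measure no spread between CXCR4-negative samples. Of 8 tested genes, C4b and C2 were called higher and none lower, and the median log2 difference was 0.22 beside -0.20 over all genes. C4b, the complement component cleaved by C1s, had 943 and 706 CPM in the CXCR4-positive libraries, against 22.4 CPM in the CXCR4-negative one. Its log2 difference was 5.12 (SE 0.34). C2, the other C1s substrate, had 49.3 and 37.0 CPM in the CXCR4-positive libraries, against 1.18 CPM in the CXCR4-negative one (4.33, SE 0.70). C3, on which all complement pathways converge, had 135 and 187 CPM in the CXCR4-positive libraries, against 192 CPM in the CXCR4-negative one (-0.28, SE 0.35). The protease gene C1ra had 14.1 and 14.7 CPM in the CXCR4-positive libraries, against 2.34 CPM in the CXCR4-negative one, without passing (2.21, SE 0.90). C1s1 (0.47) and Serping1, the C1 inhibitor (-0.04), also did not pass. C4a had 4.28 and 0.0543 CPM in the CXCR4-positive libraries, against 10.7 CPM in the CXCR4-negative one, without passing (-2.31, SE 1.23). C4b and C4a are near-identical copies whose reads the counting may have split.

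Of 8 tested genes for proteins reported to bind C1q or take up C1q-marked cells, Cd93, Cd33 and Lair1 were called higher with surface CXCR4 and none lower, with a median of 0.35. Cd93, a transmembrane lectin once named the C1q receptor, had 398 and 626 CPM in the CXCR4-positive libraries, against 63.8 CPM in the CXCR4-negative one. Its log2 difference was 2.95 (SE 0.34). Cd33, a sialic acid receptor, stood at 2.92 and Lair1, an inhibitory collagen receptor, at 1.70 (SE 0.33 and 0.38). Calr, which encodes calreticulin, stood at 0.72, Lrp1, its partner in uptake, at -0.62 and C1qbp, a mitochondrial protein that binds the globular head, at -0.55, and none of them passed. Itga2, an integrin chain of a collagen receptor, had 1.32 and 4.85 CPM in the CXCR4-positive libraries, against 17.7 CPM in the CXCR4-negative one. It did not pass (-2.34, SE 1.05).

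Of 7 transcription factors known to control C1q genes, Maf and Irf8 were called higher with surface CXCR4 and none lower, with a median of 0.93. Maf had 275 and 218 CPM in the CXCR4-positive libraries, against 21.0 CPM in the CXCR4-negative one (log2 difference 3.48, SE 0.37). Irf8, an interferon regulatory factor that works with PU.1, stood at 1.46 (SE 0.40). Spi1, which encodes PU.1, had 71.1 and 66.2 CPM in the CXCR4-positive libraries, against 95.1 CPM in the CXCR4-negative one, and did not pass (-0.47, SE 0.40). Maf was thus higher where C1q was higher, while Spi1 did not pass. The nuclear receptor genes Ppard (1.03), Nr1h3 (0.93) and Rxra (0.68) did not pass either. Spi1 had 92.3 and 67.1 CPM in the Cxcl12 knockout, against 2.56 and 49.1 CPM in the K8-Cre control (2.58, SE 0.86, limma adjusted p = 1). Its change was 0.67 without K8-Cre control 1, the library at 2.56 CPM, and 4.49 without K8-Cre control 2 (limma adjusted p = 0.0247). In culture Maf was at 61.4 CPM with both agents, 52.1 CPM with the inhibitor, 53.7 CPM with CXCL12 and 25.2 CPM untreated. Maf was thus highest in the library with the highest C1q levels, by a small margin over the single agents. Each single agent also stood above untreated cells for Maf, but the 3 chains together had 138 CPM with the inhibitor and 137 CPM untreated. With CXCL12 alone C1qb was above untreated cells, and C1qa and C1qc were below.

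**Figure D4:**
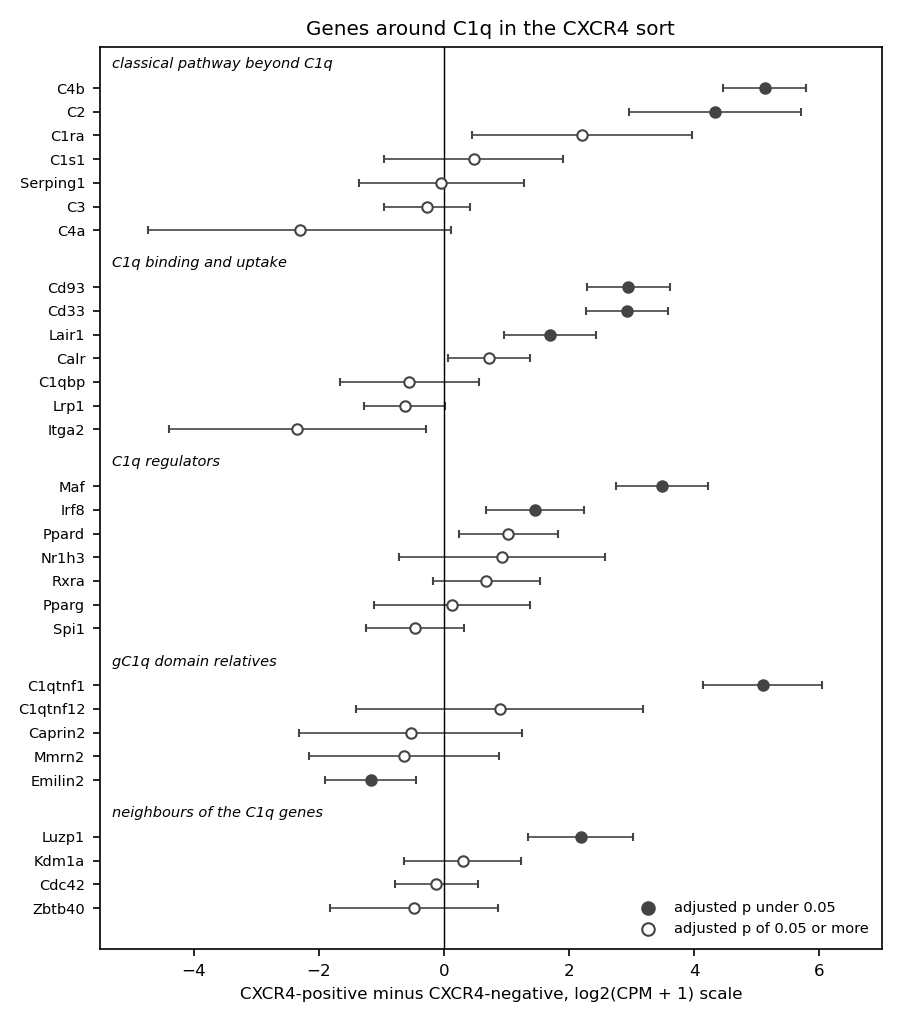
Log2 differences between CXCR4-positive and CXCR4-negative macrophages for genes of the classical pathway, C1q binding and uptake, C1q regulation, relatives with a gC1q head and neighbours on chromosome 4 that reached 10 CPM, with 95% intervals; filled symbols had a limma adjusted p under 0.05. C4b (5.12), C1qtnf1 (5.09), C2 (4.33) and Maf (3.48) lie farthest to the right.

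Other proteins with a gC1q head did not follow C1q as a family. Of 10 tested relatives, C1qtnf1, a secreted protein of the C1q and TNF family, was called higher (log2 difference 5.09, SE 0.48). It had 146 and 113 CPM in the CXCR4-positive libraries, against 2.80 CPM in the CXCR4-negative one. Emilin2, an extracellular matrix protein, was called lower with 74.1 and 106 CPM in the CXCR4-positive libraries, against 201 CPM in the CXCR4-negative one. Its log2 difference was -1.17 (SE 0.37). The call was also lost at a pseudocount of 0.1 CPM and with median-ratio scaling. The median of the relatives was 0.03. In the culture library with both agents, where C1q was highest, C1qtnf1 was at 0.998 CPM, against 41.9 CPM with the inhibitor, 12.5 CPM with CXCL12 and 26.5 CPM untreated.

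Luzp1 aside, the neighbours Kdm1a, Zbtb40 and Cdc42 did not share the pattern of the cluster in the sort. The nearest genes were too low there to compare. The neighbours in order are Ephb2, Lactbl1, Tex46, Kdm1a and Luzp1 on the side of C1qb and Epha8, Zbtb40, Wnt4, Cdc42 and Cela3a on the side of C1qa. Of the 5 tested in the sort, Luzp1, which starts beyond Kdm1a, was called higher (log2 difference 2.19, SE 0.43). It had 102 and 93.9 CPM in the CXCR4-positive libraries, against 20.7 CPM in the CXCR4-negative one. Luzp1 and Kdm1a lie on opposite strands and overlap at one end, and the sources used here do not say that strand was used in counting, so reads from the overlap cannot be told apart. Kdm1a (0.30), Zbtb40 (-0.47) and Cdc42, a small GTPase (-0.12), did not pass. The nearest genes, Ephb2 and Epha8, did not reach 10 CPM in any library of the sort.

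None of the genes of these lists was called in either knockout. In the P4 cells 8 of 8 classical pathway genes had a log2 ratio above 0 and 3 of them were at least 2-fold higher, where 13.5% of all genes with 1 FPKM or more were, among them C4b with 117 FPKM in the Cxcl12 knockout and 36.5 FPKM in the control, while C3 had 328 FPKM in the knockout and 164 FPKM in the control. Markers of other cell types were higher in sum in the same library: fibroblast markers at 394 FPKM in the Cxcl12 knockout and 237 FPKM in the control, and adipocyte markers at 27.6 FPKM in the knockout and 7.20 FPKM in the control. The 3 endothelial markers with 1 FPKM or more all had a ratio above 0, and 2 of them were at least 2-fold higher. With 1 library per group these ratios have no replicate check, and the part of these cells in them was not tested.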

How the data were processed

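The submitters' processing notes name STAR 2.7.8a, Partek and the build hg38, although the symbols and coordinates in the tables are mouse; the counting step is not given in the sources used here. The deposited macrophage tables hold log2 values, log2(CPM + 0.0001), and were turned back into CPM; the authors' P4 values are FPKM, laid out as Cufflinks writes them. Between 74.6% and 89.9% of low CPM values were whole multiples of 1 step, taken as 1 read (tolerance 0.05 reads), so the tables hold no counts and depth is an estimate. A count of 3 reads is 0.0806 to 0.349 CPM. Gene starts equalled those of GENCODE M21 for 99.48% of genes (knockouts), 99.49% (CXCR4 sort), 2.147% (culture) and 2.297% (P4); coordinates are the annotation's.

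The plan had foreseen counts for some tables. As the values are CPM, limma 3.58.1 in R 4.3.3 was fitted on log2(CPM + 1) with a mean-variance trend, for genes reaching 1 CPM in 2 or more libraries: 8 libraries and 4 group means for the knockouts, 3 libraries for the sort. The pseudocount understates changes of low genes. For the knockouts the fit had 4 residual and 97.3 prior degrees of freedom; for the sort it had 1 and an infinite prior. Tests were two-sided, with Benjamini-Hochberg adjustment over all genes and a threshold of 0.05. For culture and P4, log2 ratios took a prior of 1 and had no test. Counting intervals are exact Poisson and cover counting error only. The code was tested on simulated data.

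The members and gene lists were chosen with earlier results of these data known. Genes named are the chains; listed pathway, binding and regulator genes with at least 10 CPM or FPKM in a library of the comparison; gC1q relatives with at least 10 CPM in a macrophage library; the 5 nearest protein-coding genes on each side; the 10 genes most like C1q, of which 1 is not reported here, as is 1 regulator; and markers beside a C1q value. Alternatives were the pseudocount, filter, scaling, trend, repeat block, gene length and leaving out each library.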

Additional observations from a re-analysis of the deposited data

Results flagged for a closer look

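The change of C1qa in the Cxcr4 knockout exceeded that in the Cxcl12 knockout by 1.95 on the log2 scale, and that of C1qc by 1.96. Both were picked out by differences between libraries with the same repeat number, which were above 0 in the Cxcr4 knockout and below 0 in the Cxcl12 knockout. For C1qa they were 0.93 and 0.49 in the Cxcr4 knockout and -1.60 and -0.87 in the Cxcl12 knockout. For C1qc they were 0.36 and 0.36 in the Cxcr4 knockout and -2.70 and -0.51 in the Cxcl12 knockout. Nothing in the labels says that the numbers pair libraries. C1qc in Cxcr4 knockout library 2, at 154 CPM, lay below LysM-Cre control 1, at 347 CPM, and its change in the Cxcr4 knockout was below 0 without Cxcr4 knockout library 1 or LysM-Cre control 2. Without Cxcl12 knockout library 1 the excess was 1.45 for C1qa and 0.75 for C1qc. The difference was not tested, since the members were chosen with the Cxcl12 knockout values known.

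In culture, the log2 ratio of CXCL12 over no CXCL12 was higher in the presence of the AKT inhibitor than in its absence by 1.10 for C1qa and by 1.52 for C1qc, with opposite signs in the presence and absence of the inhibitor. C1qa stood at 0.86 with the inhibitor and -0.25 without it, and C1qc at 1.20 with it and -0.32 without it. With 1 library per condition this difference was not tested.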

How the results depend on the processing

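Leaving out each library in turn gave a Cxcl12 knockout change of -1.73 to -0.74 for C1qa, -2.04 to -0.19 for C1qb and -2.81 to -0.39 for C1qc; the ends came from leaving out Cxcl12 knockout library 2 and library 1. In the Cxcr4 knockout, where no chain passed, C1qa ranged from 0.24 to 1.18, C1qb from -0.41 to 0.37 and C1qc from -0.41 to 1.13. C1qb was above 0 without Cxcr4 knockout library 2 (0.27) or LysM-Cre control 1 (0.37), and C1qc was below 0 without Cxcr4 knockout library 1 (-0.40) or LysM-Cre control 2 (-0.41). The excess of the Cxcr4 knockout change over the Cxcl12 knockout change, whose alternatives were chosen after seeing the data, ranged from 1.45 to 2.44 for C1qa, 0.16 to 2.01 for C1qb and 0.75 to 3.17 for C1qc without single libraries. Genes called of all tested in the Cxcr4 knockout were 1 as reported, 8 without the filter, 0 without the trend and 1 to 150 without single libraries, with 150 without LysM-Cre control 2, 19 without Cxcr4 knockout library 2, 17 without LysM-Cre control 1, and 4 and 3 without Cxcl12 knockout libraries 1 and 2. In the Cxcl12 knockout they were 0 as reported and 0 to 151 without single libraries, with 151 without K8-Cre control 2 and 7 without knockout library 2. In the sort they were 0 without the filter and 0 without the trend, with the cause not tested.

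The repeat numbers are shared between groups, but nothing says what they mark, and the differences between repeats 1 and 2 correlated at 0.14 between the LysM-Cre groups and 0.091 between the K8-Cre groups across genes. With the replicate block the changes of the chains were as reported (-1.24, -1.11 and -1.60 in the Cxcl12 knockout) and the Cxcl12 knockout had 1 called gene.

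The sort differences moved with the pseudocount, to 5.36, 5.63 and 6.69 for C1qa, C1qb and C1qc at 0.1 CPM and to 4.39, 4.86 and 5.08 at 10 CPM, with quantile normalization to 5.32 for C1qa, and with median-ratio scaling to 5.39 for C1qa and 5.69 for C1qb; none changed direction. With median-ratio scaling in culture, both agents over untreated gave 1.37 for C1qb and 0.67 for C1qc, both over the inhibitor 1.02, 1.499 and 1.36 for C1qa, C1qb and C1qc, and both over CXCL12 0.76 for C1qb and 0.97 for C1qc. With a prior of 0.1 FPKM the P4 ratios were -0.069, 0.74 and 0.44. With the longest transcript as length, C1qa to C1qc in culture turned to -0.26, against 0.42, since C1qc is then counted over fewer bases, and C1qc to C1qb was -0.64 in culture and -0.84 in fresh libraries. Depth limits little here, since the lowest macrophage value of a chain rested on about 106 reads; replicate number limits more.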
